A study of Homo sapiens with 12 samples.

Results

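Solute carriers are the membrane proteins that move amino acids, sugars, metals, nucleotides, lipids and ions across the plasma membrane and the membranes of organelles, and their genes are numbered in families by sequence relation. Here 209 solute carrier symbols were followed in human monocytic and bronchial epithelial cells exposed to poultry dust extract. A gene belonged to the set if its symbol began with SLC and a family number and a probe had a detection p under 0.01 on both arrays of at least 1 of 6 groups. The probe with the highest mean signal then stood for the gene. Of 383 such symbols with a probe on the array, 209 passed, through 259 of 564 probes, among 15489 features tested in all. Measured detection thus chose the members, so detection patterns below are description and carry no test. Of the 209, 12 are antisense, pseudogene or neighbouring symbols that code for no transporter of the family.

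The 6 groups had 2 arrays each. THP-1, a monocytic leukaemia line, was given dust extract at 0.1% for 1 h or 3 h, or medium as control. BEAS-2B, a bronchial epithelial line immortalized with viral genes, was given the extract at 0.25% for 1 h or 3 h, or medium as control. All cells, controls included, had been kept without serum overnight. The labels give no time for the controls, and both dust times were compared with the same 2 control arrays of their line. Dust and time in culture thus cannot be told apart. Dose and line cannot be told apart either in any comparison of the responses. Each line is 1 culture model, and a stated exposure of 6 h was not analysed here. The labels do not say that the 2 arrays of a group came from separate cultures. The p-values rest on the spread between the 2 arrays of a group, pooled over the 6 groups and moderated across features by limma. That spread can be technical.

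Cells of this kind draw on different parts of the family. Monocytes and macrophages are known for iron and manganese transport at the phagosome and out of the cell, for taking up hexoses during activation, and for the cystine and arginine transport that feeds glutathione and nitric oxide synthesis. Airway epithelium is known for ion and bicarbonate transport into the surface liquid and for uptake of large neutral amino acids.

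Between 14977 and 17045 of 47320 probes were above background per array, and the number of arrays limits the precision. The upper quartile of the raw signal was 126 and 127 in THP-1 after 3 h of dust, against 144 to 181 on the other 10 arrays. Samples with THP-1 in the cell line field carry A459 as source name. All 9 measured monocytic markers were above background on all THP-1 arrays and 7 of them on no BEAS-2B array, while all 10 measured epithelial markers were above background on all BEAS-2B arrays and 9 of them on no THP-1 array. Both measured fibroblast markers, COL1A1 and PDGFRB, were above background on all BEAS-2B arrays and no THP-1 array. Of 3 measured A549 or alveolar markers, NAPSA and ALDH1A1 were above background on all THP-1 arrays and ALDH3A1 on none. The 1 measured lymphocyte marker, CD79A, was above background on 4 THP-1 arrays and 1 BEAS-2B array. The median SD of members between the 2 arrays of a group ranged from 0.0934 to 0.153 on the log2 scale.

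Most of the family was shared by the lines. In both lines 166 members were above background in at least 1 group, 28 in THP-1 alone and 15 in BEAS-2B alone, while 130 were above background on all 12 arrays. Mitochondrial carriers (SLC25) were the most numerous class with 31 members, of which 29 passed in both lines. Amino acid families gave 26 members, nucleotide sugar families (SLC35) 23, metal families 22, families for inorganic ions and bicarbonate 20 and sugar families 18. Families SLC13, SLC14, SLC28, SLC32, SLC34 and SLC60 had probes but no member. The members nearest the threshold were SLC18A1, with a best detection p of 0.00909 and a mean raw signal of 102, and SLC25A45, SLC38A2-AS1 and SLC6A6 at 0.00779. Just outside were SLC35G5 at 0.0104, with a mean raw signal of 98.8, then SLC27A6 at 0.0117, SLC5A12 at 0.0143 and SLC25A27 at 0.0156.

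**Figure D1:**
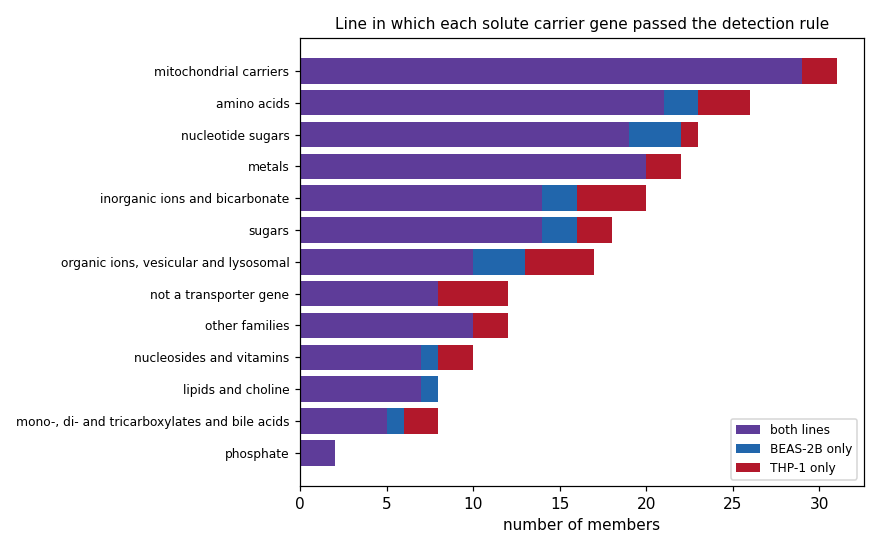
Number of solute carrier members (horizontal axis) by class, with families grouped by what they are known to carry. Colours give the line in which a member was above background on both arrays of at least 1 group; 166 of 209 were so in both lines.

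The first question was how the unexposed lines differ. In BEAS-2B controls against THP-1 controls, 77 members were higher and 66 lower at an adjusted p under 0.05 (limma, Benjamini-Hochberg over all features). Over all features 32.2% were called higher and 30.1% lower, against 36.8% and 31.6% of members, so the lines differed in the solute carriers about as widely as elsewhere. The median difference over members was 0.04 on the log2 scale, against 0.01 over all features. In bulk samples, fewer cells that express a gene and less RNA per cell cannot be told apart. Without the 12 symbols that code for no transporter the counts were 74 and 62.

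Among members higher in BEAS-2B, the large neutral amino acid transporter and its partner chain stood out. SLC7A5, which exchanges leucine and other large neutral amino acids, had normalized log2 intensities of 13.30 and 13.41 in BEAS-2B controls and 8.59 and 9.42 in THP-1 controls. SLC3A2, the heavy chain that carries SLC7A5 and SLC7A11 to the membrane, had 11.81 and 11.83 in BEAS-2B controls and 8.83 and 9.24 in THP-1 controls. For both genes every BEAS-2B array lay above every THP-1 array, with log2 differences of 4.35 ± 0.24 (SE, adjusted p = 8.63e-08) and 2.78 ± 0.18 (adjusted p = 2.3e-07). Arrays that do not overlap the other group's were a condition for naming members as the largest, here and in each dust comparison with control. Such separation is thus no added evidence. SLC44A2, a choline transporter, was higher by 4.11 ± 0.15 and SLC25A4, the adenine nucleotide translocator of heart and muscle, by 3.03 ± 0.18. SLC37A3, of the sugar phosphate family, was higher by 2.83 ± 0.22, though 1 of its 2 THP-1 control arrays was not well above background. SLC18B1, SLC35G2 and SLC2A12 were not well above background in THP-1 controls and were at least 4.36-fold, 3.47-fold and 2.27-fold higher in BEAS-2B controls. Such a bound sets the bright group's mean against the lowest signal above background on each dim array.

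Among members lower in BEAS-2B were genes known from myeloid cells. SLC2A5, the fructose transporter, had 4.89 and 5.21 in BEAS-2B controls, neither well above background, and 11.44 and 11.76 in THP-1 controls. SLC11A1, which moves iron and manganese out of the phagosome, had 4.43 and 4.43 in BEAS-2B controls and 9.03 and 8.90 in THP-1 controls. SLC40A1, the iron exporter ferroportin, had 4.74 and 4.48 in BEAS-2B controls and 8.24 and 8.04 in THP-1 controls. These genes were at least 61.9-fold, 9.99-fold and 5.63-fold lower in BEAS-2B, and arrays that do not overlap were a condition for naming them. SLC22A16, a carnitine transporter, was at least 48.1-fold lower, SLC29A4, a monoamine and nucleoside transporter, at least 8.93-fold and SLC10A4 at least 4.96-fold. SLC15A3, a lysosomal histidine and peptide transporter, was measured in both lines and differed by -3.61 ± 0.14, and SLC22A15 by -3.90 ± 0.26. Of the followed glucose transporters, SLC2A1 was higher in BEAS-2B by 0.93 ± 0.17 and SLC2A3 lower by 1.98 on the log2 scale. SLC2A14 is a close copy of SLC2A3, and whether the SLC2A3 probe also reads it was not tested.

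By class, nucleotide sugar families had 12 members higher and 5 lower of 23 in BEAS-2B, and mitochondrial carriers 13 higher and 6 lower of 31, beside 32.2% higher and 30.1% lower over all features. Metal families had 6 higher and 8 lower of 22, and amino acid families 11 higher and 8 lower of 26. The call of SLC43A2, -0.74, ended without BEAS-2B control replicate 1 (adjusted p = 0.181) and without THP-1 control replicate 2 (-0.24, adjusted p = 0.306).

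**Figure D2:**
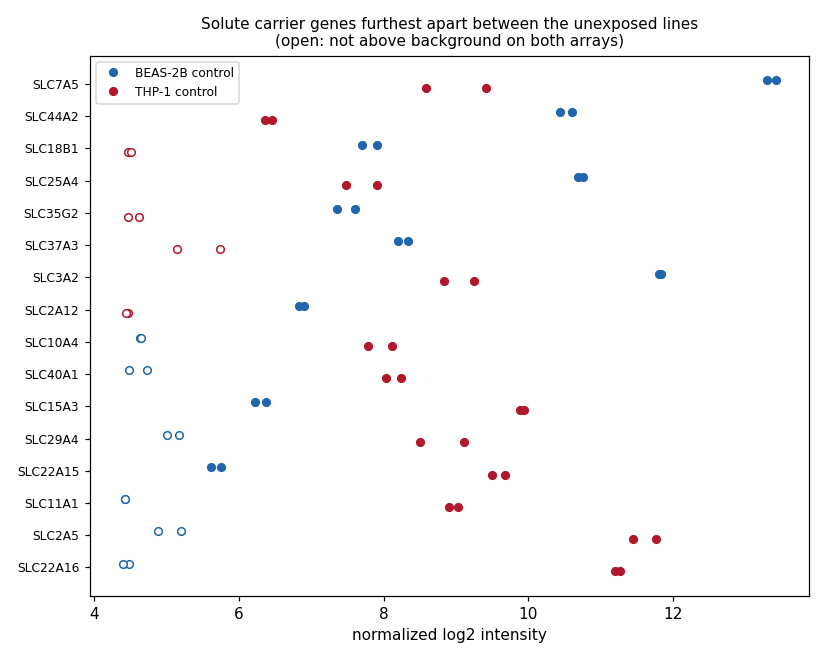
Normalized log2 intensity (horizontal axis) on each control array of the 16 members furthest apart between the unexposed lines, 8 in each direction. Blue points are BEAS-2B and red points THP-1, and open points were not above background on both arrays of the group. The lines overlap for none of the 16, since members were picked on that condition.

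After 1 h of dust few members changed in either line. In THP-1, 3 members rose and 2 fell (1.26% and 0.387% of all features), and 21 had an unadjusted p under 0.05. In BEAS-2B, 2 rose and 0 fell by limma (1.1% and 0.0775% of all features), with 12 members at an unadjusted p under 0.05 in either direction. With a trend of variance on mean, SLC25A3, the mitochondrial phosphate carrier, also fell in BEAS-2B by 0.38 on the log2 scale (adjusted p = 0.0247). With so few calls these shares say little about the family.

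SLC2A6, a hexose transporter of lysosomal and other inner membranes, had 11.64 and 11.45 in THP-1 after 1 h of dust and 9.96 and 10.12 in THP-1 controls. Both dust arrays lay above both controls, with a log2 change of 1.50 ± 0.15 (adjusted p = 0.000287). SLC2A3, the high-affinity glucose transporter, had 9.33 and 8.77 after 1 h of dust and 8.10 and 7.88 in controls, a change of 1.06 ± 0.22 (adjusted p = 0.0424). SLC29A3, a nucleoside transporter of lysosomes, had 5.65 and 5.93 after 1 h of dust, with 1 array not well above background, and 7.01 and 6.96 in controls, a change of -1.20 ± 0.20. This dust group was not among the 3 in which SLC29A3 passed the detection rule. SLC46A3, a lysosomal member of the heme and folate transporter family, fell by 0.58 on the log2 scale (adjusted p = 0.0451), a call that was also lost with median scaling, a variance trend or each line on its own (adjusted p of 0.0546, 0.0831 and 0.288). The last 3 calls ended when any of 7, 3 and 10 single arrays was left out, with adjusted p of up to 0.245, 0.104 and 0.236. SLC11A2, the divalent metal transporter of endosomes, changed by 0.67 ± 0.15 and did not pass (adjusted p = 0.0588), but passed with a variance trend (adjusted p = 0.0488).

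SLC25A24 and SLC25A25 are calcium-regulated carriers that exchange ATP-Mg for phosphate across the inner mitochondrial membrane. SLC25A25 had 9.89 and 9.95 in BEAS-2B after 1 h of dust and 8.49 and 8.48 in BEAS-2B controls, a log2 change of 1.44 ± 0.18 (adjusted p = 0.00301). Its second probe, not above background in BEAS-2B controls, passed too (adjusted p = 0.00844). In THP-1 the change of SLC25A25 at 1 h was 0.84 ± 0.18 (adjusted p = 0.0547).

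The probe used for SLC25A24 gave the highest change of any member at 1 h, and its second probe did not follow it. The probe used had 9.39 and 9.04 in THP-1 after 1 h and 11.08 and 10.69 after 3 h, against 5.74 and 5.09 in THP-1 controls. It had 9.85 and 9.96 in BEAS-2B after 1 h and 10.43 and 8.87 after 3 h, against 5.53 and 6.07 in BEAS-2B controls. Every dust array lay above every control array of its line, and in each control group 1 of 2 arrays was not well above background. The probe used thus passed the detection rule through the 4 dust groups alone, and their signals raised the mean by which it was picked. Its changes are given as a description. The log2 changes were 3.80, 5.47, 4.11 and 3.85 (SE 0.42 each) in THP-1 at 1 h, THP-1 at 3 h, BEAS-2B at 1 h and BEAS-2B at 3 h, all called. The second probe changed by 0.48, -0.70, -0.03 and -0.47 in the same order, and passed only in THP-1 at 3 h, as a fall (adjusted p = 0.0199) in a group where it was not above background. Which probe reads the gene's main transcript was not tested, so the rise of SLC25A24 holds for 1 of its 2 probes.

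The family changed most in THP-1 after 3 h of dust, where 49 members rose and 70 fell (limma, adjusted p under 0.05; 19.1% and 26.5% of all features). This was 23.4% and 33.5% of members, above the background in both directions, a difference that was not tested. The median change was -0.05 over members and -0.05 over all features. With each array centred on its median in place of quantile normalization, 29 members rose and 91 fell. Over all features 10.7% then rose and 39% fell, with a median of -0.30. These arrays also had the lowest raw upper quartiles, and the part of that in the counts was not tested. Among the 148 members above background on all 4 arrays compared, 36 rose and 44 fell, which is 24.3% and 29.7%. Of the 10849 features above background on those arrays 19.7% rose and 26.5% fell. A member detected in 1 group only, as 14 were, had to be low elsewhere.

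**Figure D3:**
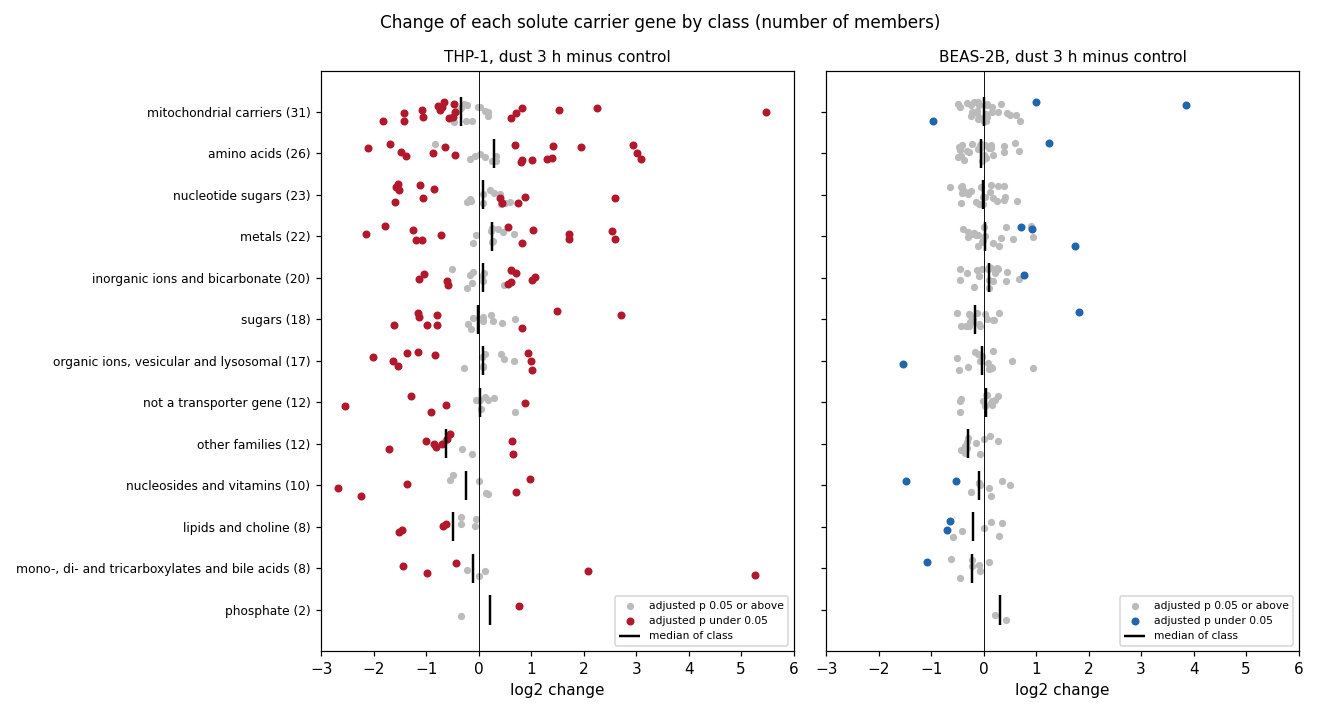
Log2 change of each member after 3 h of dust (horizontal axis, dust minus control) by class, in THP-1 on the left and BEAS-2B on the right. Coloured points passed an adjusted p under 0.05 and black bars are class medians; 119 members passed in THP-1 and 15 in BEAS-2B, and median scaling moves the THP-1 medians down.

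In the amino acid families 11 of 26 members rose and 7 fell after 3 h of dust in THP-1 (42.3% and 26.9%). Over all features 19.1% rose and 26.5% fell. With median scaling 9 members rose and 10 fell, against 10.7% and 39% of all features. Class counts below are read against these shares, and no class was tested against them. SLC7A5 had 11.99 and 11.88 after 3 h of dust, against 8.59 and 9.42 in controls, a change of 2.93 ± 0.24 (7.63-fold, adjusted p = 6.94e-06). SLC43A2, which lets large neutral amino acids pass without exchange, had 10.38 and 10.41 after dust, against 6.88 and 7.87 in controls, a change of 3.02 ± 0.27 (adjusted p = 1.02e-05). Dust arrays lay above controls for both, and the control arrays of each lay further apart than the dust arrays.

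The other amino acid genes that rose included carriers of cystine and arginine. SLC7A11, the cystine and glutamate exchanger, had 7.84 and 7.42 in THP-1 after 3 h of dust, against 4.65 and 4.44 in controls, which were not well above background. It was at least 3.86-fold higher after dust, given as a description, since this was its only group above background and the one that made it a member. SLC7A2 and SLC7A1, which carry arginine and other cationic amino acids, rose as well. SLC7A2 was at least 1.77-fold higher, from a control group that was not well above background, and SLC7A1 had 10.77 and 10.94 after dust, against 9.47 and 9.64 in controls. The heavy chain SLC3A2 rose by 1.02 ± 0.18 and by 1.12 on its second probe. SLC43A3, placed here by its family but known in human cells to carry purine nucleobases, rose by 1.39 ± 0.15 and by 1.44 on its second probe. SLC7A5P2, a pseudogene of SLC7A5, had 14.26 to 14.40 on all THP-1 arrays, and whether its transcripts and those of SLC7A5 reach each other's probes was not tested.

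Several carriers of small neutral amino acids and glutamine fell or did not pass the test. SLC38A2, an alanine and glutamine transporter, had 8.32 and 9.05 in THP-1 after 3 h of dust, against 9.95 and 10.80 in controls, a change of -1.69 ± 0.30 (adjusted p = 0.00109). SLC1A4, which carries alanine, serine and cysteine, had 7.04 and 6.88 after dust, against 8.30 and 8.40 in controls, a change of -1.39 ± 0.19. SLC38A9, the arginine-sensing transporter of the lysosome, had 5.09 and 5.55 after dust, not well above background, against 7.31 and 7.57 in controls, at least 3.04-fold lower. The glutamine carriers SLC1A5 and SLC38A1 changed by -0.17 ± 0.18 and -0.82 ± 0.43 and did not pass (adjusted p = 0.474 and 0.148), but both passed as falls with median scaling. The rise of SLC1A3, a glutamate transporter, by 0.69 ± 0.25 (adjusted p = 0.0434) was lost with median scaling and without any of 6 single arrays.

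**Figure D4:**
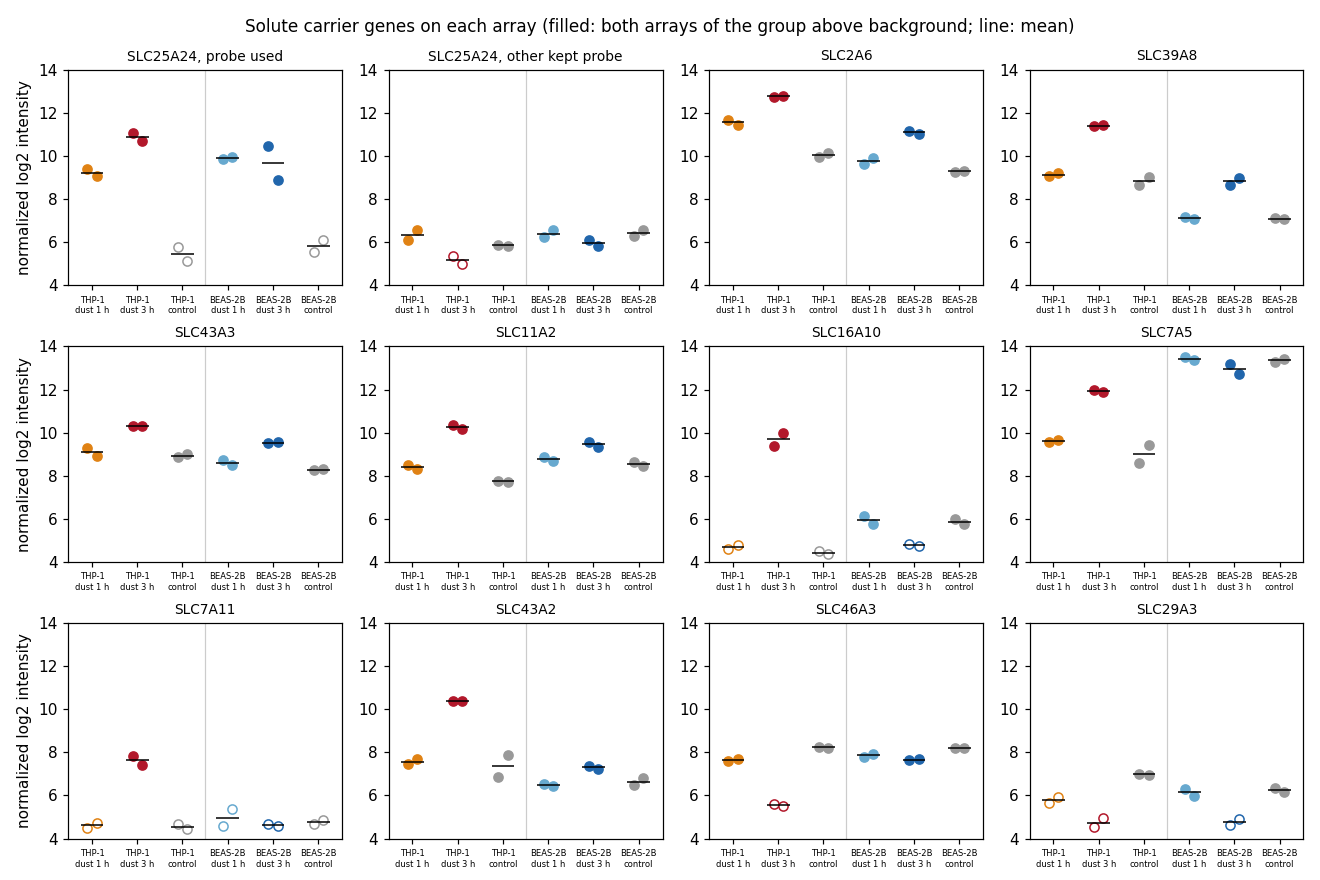
Normalized log2 intensity (vertical axis) on each array of 11 members, with SLC25A24 drawn for both of its kept probes. Each panel has the THP-1 groups left and the BEAS-2B groups right, filled points mark groups above background on both arrays and lines are means; SLC16A10 and SLC7A11 are high in THP-1 after 3 h of dust alone, while the 2 probes of SLC25A24 part.

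In the metal families 7 of 22 members rose and 6 fell after 3 h of dust in THP-1. This was 31.8% and 27.3%, against 19.1% and 26.5% of all features. With median scaling 4 rose and 8 fell. SLC39A8, which takes up zinc, manganese and iron, had 11.39 and 11.41 after 3 h of dust, against 8.62 and 9.0 in controls, a change of 2.59 ± 0.16 (6.02-fold, adjusted p = 9.8e-07). Its second probe gave 2.59 too. SLC11A2 had 10.35 and 10.19 after dust, against 7.74 and 7.72 in controls, a change of 2.54 ± 0.15 (adjusted p = 6.68e-07). Both importers thus lay far above their controls, beyond the spread of either group. SLC39A14, a second zinc and iron importer, rose by 1.72 ± 0.28. SLC41A2, a magnesium transporter, was at least 1.64-fold higher from a control group not well above background. This too is a description, since SLC41A2 passed the detection rule in 2 groups alone, both given dust.

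Transcripts of the carriers that move iron out of the cell and the phagosome went the other way. SLC40A1 had 6.30 and 5.70 in THP-1 after 3 h of dust, with 1 array not well above background, against 8.24 and 8.04 in controls, a change of -2.14 ± 0.22 (adjusted p = 2.64e-05). Its second probe, not above background after dust, did not pass (adjusted p = 0.0753). SLC40A1 passed the detection rule in 2 groups alone, neither of them given dust for 3 h, so its fall is a description. SLC11A1 had 8.13 and 7.63 after dust, against 9.03 and 8.90 in controls, a change of -1.09 ± 0.16 (adjusted p = 0.000341). SLC39A3, a zinc importer, fell on all 3 of its probes, by 1.79, 1.34 and 0.70 on the log2 scale. The zinc exporter SLC30A1 and the copper transporters SLC31A1 and SLC31A2 changed by 0.26 ± 0.24, 0.37 ± 0.16 and 0.67 ± 0.26 and did not pass, although SLC31A2 (adjusted p = 0.0606) passed with a variance trend (adjusted p = 0.0461) and with the authors' value table (adjusted p = 0.0497).

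Sugar families had 3 rises and 6 falls among 18 members in THP-1 at 3 h, and 2 rises and 7 falls with median scaling. The former were 16.7% and 33.3%, against 19.1% and 26.5% of all features. SLC2A6 had 12.74 and 12.78 after 3 h of dust, against 9.96 and 10.12 in controls, a change of 2.72 ± 0.15 (6.58-fold, adjusted p = 4.04e-07). SLC2A3 had 9.54 and 9.41 after dust, against 8.10 and 7.88 in controls, a change of 1.48 ± 0.22 (adjusted p = 0.00031). SLC2A5 had 10.58 and 10.31 after dust, against 11.44 and 11.76 in controls, and fell by 1.15 on the log2 scale. The basal glucose transporter SLC2A1 changed by -0.20 ± 0.17 and did not pass (adjusted p = 0.38), but fell by 0.54 with median scaling (adjusted p = 0.0256).

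Among carboxylate families 2 of 8 members rose and 3 fell (19.1% and 26.5% of all features). SLC16A10, which belongs to the monocarboxylate family but carries aromatic amino acids, had 9.39 and 9.98 in THP-1 after 3 h of dust, against 4.50 and 4.34 in controls and 4.59 and 4.77 after 1 h. Neither the control nor the 1 h group was well above background, and the level after 3 h was at least 16-fold above the controls (adjusted p = 5.43e-08). SLC16A9, a carnitine and creatine transporter of the same family, had 6.78 and 6.97 after dust and was at least 2.29-fold higher, likewise a description, since it became a member through this group alone.

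In the mitochondrial carrier family 6 of 31 members rose and 13 fell after 3 h of dust in THP-1, with a class median of -0.34. This was 19.4% and 41.9%, against 19.1% and 26.5% of all features. With median scaling 4 rose and 17 fell. Beside the probe of SLC25A24 described above, SLC25A25 had 8.66 and 9.10 after 3 h of dust, against 6.62 and 6.64 in controls, a change of 2.25 ± 0.18. Its second probe was called higher too (adjusted p = 0.00768), but no THP-1 control array and only 1 dust array measured it above background, so it gives no size. SLC25A23, another calcium-regulated carrier of the ATP-Mg type, fell by 0.49 on the log2 scale (adjusted p = 0.0171). SLC25A42, the coenzyme A carrier, had 6.80 and 6.56 after dust, against 8.47 and 8.54 in controls, a change of -1.83 ± 0.14. SLC25A20, the carnitine-acylcarnitine carrier that brings fatty acids to oxidation, fell by 1.42 on the log2 scale, and its second probe was above background in controls but on neither dust array. SLC25A28, an iron importer of mitochondria, rose by 0.83 ± 0.19, while its relative SLC25A37 changed by -0.02 ± 0.24. SLC25A23 and SLC25A20 are named here after their values were seen.

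In lipid and choline families 4 of 8 members fell and 0 rose in THP-1 at 3 h, with 6 falls and 0 rises under median scaling. Over all features 26.5% fell and 19.1% rose, and 39% and 10.7% with median scaling, so that a class count is read against a wide background of falls. The 4 were SLC27A1, SLC27A2 and SLC27A3, which bring in or activate fatty acids, and SLC44A1, a choline transporter, at -1.46, -0.63, -1.51 and -0.67. SLC22A5, the carnitine transporter of the plasma membrane, had 4.95 and 5.34 after dust, not well above background, against 7.14 and 7.18 in controls, at least 2.52-fold lower. SLC22A16, another carnitine transporter, had 9.87 and 9.33 after dust, against 11.20 and 11.27 in controls. SLC27A1, SLC27A2, SLC44A1 and SLC22A16 were picked here after their values were seen.

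Nucleoside and vitamin families, of which 2 of 10 members rose and 3 fell (19.1% and 26.5% of all features), included 2 genes below background after dust. SLC46A3 had 5.58 and 5.52 in THP-1 after 3 h of dust, not well above background, against 8.27 and 8.19 in controls, at least 5.27-fold lower (adjusted p = 1.44e-07). SLC29A3 had 4.51 and 4.97 after dust, not well above background, against 7.01 and 6.96 in controls, at least 2.23-fold lower. Arrays clear of the controls were a condition for naming both genes. SLC29A3 passed the detection rule in 3 groups, none of them given dust for 3 h, so its fall is a description. SLC19A1, the reduced folate carrier, changed by -1.36 ± 0.22 and SLC19A2, a thiamine transporter, by 0.98 ± 0.15, both called. SLC15A3 rose by 0.99 ± 0.14 from controls of 9.94 and 9.88. SLC67A1-AS, an antisense symbol, was at least 4.05-fold lower after dust, and reads of opposite strands at that locus were not told apart here. This fall is a description too, since SLC67A1-AS passed the detection rule in 2 groups alone, neither of them given dust for 3 h.

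Nucleotide sugar families, which feed glycosylation in the Golgi and endoplasmic reticulum, had 5 rises and 7 falls among 23 members. This was 21.7% and 30.4%, against 19.1% and 26.5% of all features. With median scaling there were 1 rise and 8 falls. SLC35G1 had 7.70 and 6.52 after dust, against 4.48 and 4.55 in controls, which were not well above background, and was at least 2.69-fold higher. The CMP-sialic acid transporter SLC35A1 had 9.22 and 9.16 after dust, against 10.74 and 10.83 in controls, a change of -1.59 ± 0.12, and was named after its values were seen. Inorganic ion and bicarbonate families had 6 rises and 4 falls among 20 (30% and 20%), and 3 rises and 6 falls with median scaling. SLC4A7, a sodium bicarbonate cotransporter, rose by 0.62 ± 0.14, while its second probe was above background in no THP-1 group. The phosphate transporter SLC20A1 rose by 0.76 ± 0.26, a call that was lost with median scaling and without THP-1 control replicate 1 or the second dust array (adjusted p of 0.245 and 0.162).

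For members with the largest called changes under dust, the bases before the annotated start were read to show what sequence lies there. RefSeq windows of 250 bases on GRCh38.p14 were found for SLC25A24, SLC16A10, SLC7A5, SLC43A2 and SLC2A6, each upstream of 1 annotated start. SLC7A11 is named only. A window can lie downstream of another start of the same gene, as the printed SLC43A2 window does. They were searched on both strands for 4 motifs chosen with the results known: AP-1 (TGANTCA), the antioxidant response element (TGACNNNGC), NF-kB (GGG, any 3 bases, then TTCC) and the amino acid response element (TGATGNAA). Capitals mark matches, and 1 window per gene is printed 5′ to 3′ on the gene's strand.
SLC25A24, chr1:108200344-108200593, strand -: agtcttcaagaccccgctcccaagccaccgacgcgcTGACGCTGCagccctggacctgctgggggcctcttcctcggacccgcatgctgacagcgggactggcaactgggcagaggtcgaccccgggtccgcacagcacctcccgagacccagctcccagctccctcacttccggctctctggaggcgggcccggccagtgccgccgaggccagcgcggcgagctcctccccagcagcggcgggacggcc
SLC16A10, chr6:111087253-111087502, strand +: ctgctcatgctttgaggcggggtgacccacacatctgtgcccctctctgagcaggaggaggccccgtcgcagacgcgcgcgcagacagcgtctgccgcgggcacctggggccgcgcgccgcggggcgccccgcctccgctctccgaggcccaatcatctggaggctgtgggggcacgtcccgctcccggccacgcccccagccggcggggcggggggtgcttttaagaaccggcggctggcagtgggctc
SLC7A5, chr16:87869508-87869757, strand -: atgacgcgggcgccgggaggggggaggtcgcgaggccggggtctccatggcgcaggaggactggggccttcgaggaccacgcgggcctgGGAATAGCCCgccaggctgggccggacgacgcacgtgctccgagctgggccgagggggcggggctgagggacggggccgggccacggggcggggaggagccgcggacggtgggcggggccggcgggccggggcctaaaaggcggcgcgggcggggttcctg
SLC43A2, chr17:1628417-1628666, strand -: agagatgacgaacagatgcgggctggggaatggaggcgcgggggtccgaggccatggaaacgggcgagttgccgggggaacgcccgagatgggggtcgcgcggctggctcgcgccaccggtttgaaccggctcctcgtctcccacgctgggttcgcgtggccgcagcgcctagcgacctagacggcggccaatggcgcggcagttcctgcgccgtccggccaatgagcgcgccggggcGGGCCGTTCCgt
SLC2A6, chr9:133479100-133479349, strand -: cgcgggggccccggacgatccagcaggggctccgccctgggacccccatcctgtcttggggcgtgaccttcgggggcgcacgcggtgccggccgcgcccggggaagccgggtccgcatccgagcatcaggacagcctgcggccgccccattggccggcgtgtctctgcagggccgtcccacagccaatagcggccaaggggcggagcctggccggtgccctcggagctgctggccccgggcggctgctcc
The SLC25A24 window held an antioxidant response element match 214 bases before the start, and the other SLC25A24 window held none of the 4 motifs. The SLC7A5 window held an NF-kB match on the opposite strand at 161 bases, and the SLC43A2 window one at 12 bases. Another of 3 SLC43A2 windows held an AP-1 match at 34 bases. The outermost SLC43A2 window, chr17:1628835-1629084, held none of the 4 motifs. Both SLC43A2 windows with a match, and the other SLC25A24 window, lie downstream of the outermost start of their gene. No match was found in the SLC16A10 and SLC2A6 windows, which says only that these letters are not in them. Over all 35116 windows the AP-1 letters were in 6.57%, the antioxidant response element in 10.9%, NF-kB in 5.67% and the amino acid response element in 3.14%. Over 257 windows of 178 members with an entry the shares were 5.06%, 13.6%, 5.45% and 3.11%, and a match is a description, not a site of binding.

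In BEAS-2B after 3 h of dust 8 members rose and 7 fell (limma, adjusted p under 0.05; 3.29% and 2.21% of all features). This was 3.83% and 3.35% of members, near the background in both directions, and the median change was -0.03. Without background correction 14 rose and 7 fell, and the authors' value table gave 14 and 7.

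The largest fitted rise was that of the probe used for SLC25A24, described above, at 3.85 ± 0.42. A hexose transporter and metal importers were among the other 7. SLC2A6 had 11.16 and 11.03 in BEAS-2B after 3 h of dust, against 9.25 and 9.31 in controls, a change of 1.82 ± 0.15 (adjusted p = 9.62e-05). SLC39A8 had 8.65 and 8.96 after dust, against 7.09 and 7.04 in controls, a change of 1.74 ± 0.16 (adjusted p = 0.000229), with 2.17 on its second probe. SLC43A3 had 9.49 and 9.55 after dust, against 8.26 and 8.31 in controls, a change of 1.24 ± 0.15 (adjusted p = 0.00135). For these 3 the dust arrays lay well clear of the controls, and no single left-out array ended the call. SLC11A2 had 9.58 and 9.33 after dust, against 8.63 and 8.45 in controls, a change of 0.92 ± 0.15 that was lost without BEAS-2B control replicate 2 (adjusted p = 0.073). SLC25A37, an iron importer of mitochondria, had 10.22 and 9.32 after dust, against 8.79 and 8.77 in controls. Its dust arrays lay apart from each other, and its call (0.99 ± 0.24) was lost without any of 9 single arrays. SLC4A7 rose by 0.76 ± 0.14, lost without any of 3 arrays. Its second probe, above background on these arrays, had 6.49 and 6.19 after dust, against 5.91 and 6.38 in controls, so the groups overlapped on it. SLC41A2 was at least 1.25-fold higher, lost without either of 2 arrays and likewise a description, since no control group measured it above background.

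Of the 7 falls in BEAS-2B, 3 held without any single array. SLC47A2, a proton-coupled exporter of organic cations, had 4.81 and 4.85 after 3 h of dust, not well above background, against 6.41 and 6.33 in controls, at least 1.51-fold lower (adjusted p = 0.000107). SLC29A3 had 4.64 and 4.92 after dust, not well above background, against 6.36 and 6.16 in controls, at least 1.4-fold lower (adjusted p = 0.00195). SLC25A42 had 7.53 and 7.65 after dust, against 8.56 and 8.56 in controls, a change of -0.97 ± 0.14 (adjusted p = 0.00292). That the dust arrays of all 3 lay below their controls was a condition for naming them. SLC47A2 passed the detection rule in 2 groups alone and SLC29A3 in 3, none of them given dust for 3 h. Their falls are thus a description. SLC27A3, SLC44A2 and SLC46A3 fell by 0.69, 0.64 and 0.52 on the log2 scale, and each call was lost without any of 6 arrays. SLC16A10 had 4.84 and 4.73 after dust, not well above background, against 5.96 and 5.76 in controls, at least 1.06-fold lower. Its call was lost without any of 4 arrays. It was also lost without background correction (limma, adjusted p = 0.0851) and with the authors' value table (adjusted p = 0.0834).

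Of the genes called at 3 h, 12 were called in both lines, which is 10.1% of the 119 in THP-1 and 80% of the 15 in BEAS-2B, and these comparisons share no array. Over all features 497 were called in both, 7.03% of the calls in THP-1 and 58.3% of those in BEAS-2B, and 85.5% of them had the same direction. Among members the direction was the same in 11 of the 12, and whether members differ from other features in this was not tested: SLC25A24, SLC2A6, SLC39A8, SLC43A3, SLC11A2, SLC41A2 and SLC4A7 rose, and SLC29A3, SLC25A42, SLC27A3 and SLC46A3 fell. SLC16A10 rose in THP-1 and fell in BEAS-2B, where it lay near background and its call was lost without background correction and with the authors' value table. The probe used for SLC25A24 and that of SLC41A2 passed the detection rule only through groups given dust, so their shared rises are a description. SLC29A3 passed the rule in 3 groups, none of them given dust for 3 h, so its shared fall is a description too. The rise of SLC4A7 is that of the probe used.

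**Figure D5:**
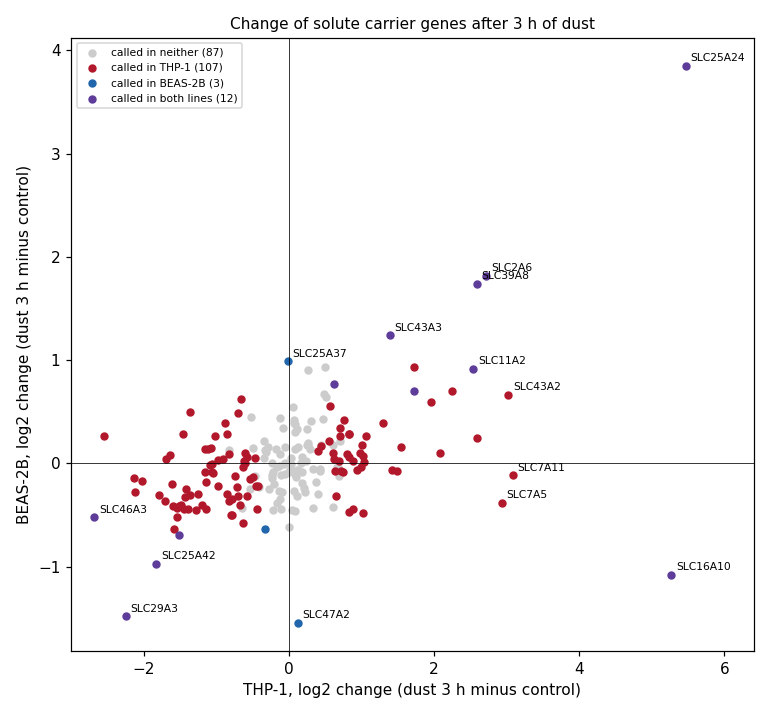
Log2 change after 3 h of dust in THP-1 (horizontal axis) and in BEAS-2B (vertical axis), 1 point per member, coloured by the line in which it passed. Of the 12 members called in both lines, 11 lie in the upper right or lower left and SLC16A10 lies in the lower right. The BEAS-2B call of SLC16A10 was lost without background correction.

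Whether members responded differently in the lines was tested as the dust change in BEAS-2B minus that in THP-1. At 1 h 0 members passed in either direction by limma (0.265% and 0.303% of all features), with 16 at an unadjusted p under 0.05. SLC2A6, at -1.04 ± 0.21 (adjusted p = 0.0686), passed without background correction, with the authors' value table and with a trend of variance on mean. At 3 h 45 members had a higher and 32 a lower change in BEAS-2B (14.9% and 11.7% of all features), 21.5% and 15.3% of members. With median scaling the split was 62 and 18, while over all features 22.3% were then higher and 7.64% lower.

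Amino acid carriers were among the members that differed most between the lines at 3 h. The change of SLC7A5 was -0.39 ± 0.24 in BEAS-2B and 2.93 ± 0.24 in THP-1, a difference of -3.32 ± 0.35 (adjusted p = 0.000104). BEAS-2B had 13.20 and 12.74 after dust and 13.30 and 13.41 in controls, so that THP-1 after dust, at 11.99 and 11.88, still lay below every BEAS-2B array. SLC43A2 differed by -2.35 ± 0.38, SLC3A2 by -1.50 ± 0.25, SLC7A2 by -1.36 ± 0.29 and SLC7A1 by -0.91 ± 0.22, the last with -0.60 and no call under median scaling (adjusted p = 0.0938). SLC7A11 differed by -3.20 ± 0.34, with no BEAS-2B group well above background. SLC16A10 differed by -6.35 ± 0.29, a fitted value that rests on groups below background and is no bound. In the other direction SLC38A2 differed by 1.73 ± 0.43 and SLC1A4 by 0.94 ± 0.26, with changes of 0.04 ± 0.30 and -0.45 ± 0.19 in BEAS-2B, against -1.69 ± 0.30 and -1.39 ± 0.19 in THP-1.

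Of the metal and sugar carriers that rose in both lines, SLC11A2, SLC2A6 and SLC39A8 rose less in BEAS-2B than in THP-1. SLC11A2 differed by -1.62 ± 0.21 (adjusted p = 0.000398), SLC2A6 by -0.90 ± 0.21 (adjusted p = 0.00961) and SLC39A8 by -0.85 ± 0.23 (adjusted p = 0.0195). The second probe of SLC39A8 gave -0.42 (adjusted p = 0.285), and that call was also lost with median scaling (-0.74, adjusted p = 0.0591) and without any of 4 arrays. SLC43A3 differed by -0.15 ± 0.22 and did not pass (adjusted p = 0.655). SLC2A3 differed by -1.56 ± 0.31, at -0.07 ± 0.22 in BEAS-2B and 1.48 ± 0.22 in THP-1. SLC40A1 and SLC11A1, with differences of 2.00 ± 0.31 and 1.08 ± 0.23, were not well above background in BEAS-2B, where a fall could not have been seen. SLC46A3 fell less in BEAS-2B, by a difference of 2.16 ± 0.17 (adjusted p = 2.18e-05). SLC19A1 and SLC22A5 differed by 1.86 ± 0.32 and 1.85 ± 0.24.

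Of 22 partner genes of these carriers, 18 were measured. In THP-1 at 3 h 7 of them rose and 3 fell, in BEAS-2B at 3 h 1 rose, and at 1 h 1 rose and 1 fell in THP-1. Over all features the shares in THP-1 at 3 h were 19.1% higher and 26.5% lower, 3.29% rose in BEAS-2B at 3 h, and in THP-1 at 1 h the shares were 1.26% and 0.387%. MT2A, a metallothionein that binds zinc and copper, had 12.52 and 13.11 in THP-1 after 3 h of dust, against 7.71 and 8.34 in controls, a change of 4.79 ± 0.29. MTF1, the zinc-sensing factor known to drive metallothionein genes, rose by 1.41 ± 0.20 at 1 h and 2.20 ± 0.20 at 3 h in THP-1, with the same controls. ATP1B1, a subunit of the sodium pump whose gradient drives many solute carriers, rose by 4.12 ± 0.30 in THP-1 at 3 h and changed by 0.88 ± 0.30 in BEAS-2B at 3 h (adjusted p = 0.119). The transferrin receptor TFRC rose by 0.90 ± 0.19 in THP-1 at 3 h. TXNIP, a brake on glucose uptake, fell by 2.54 on the log2 scale there, and HK2, which traps glucose in the cell, rose by 1.36 ± 0.18 in BEAS-2B at 3 h. In THP-1 at 3 h HK2 was called lower (-0.86 ± 0.18, adjusted p = 0.00251), with dust arrays at 5.16 and 4.69, under the lowest signal above background on any array (5.5).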

How the data were processed

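RNA of 2 cell lines was measured on a human Illumina BeadChip, 12 arrays in 6 groups of 2, grouped by the labels. The deposited raw table gives, per the file headers, each probe's signal and its bead standard error as intensity on a linear scale, a bead number and a detection p-value, and the submitters' processing notes name GenomeStudio 2011.1. The authors' value table, also intensity, has a median of 80.6 on every array, so its columns were put on a shared scale, a step not given in the sources used here; it served as an alternative.

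The neqc function of limma 3.58.1 (R 4.3.3, offset 16) corrected background through the detection p-values, normalized by quantiles and gave log2 intensities. Probes with detection p under 0.01 on both arrays of a group were kept, 19045 of 47320. The annotation gave 30112 probes 1 symbol, 8 several and 17200 none used here, and 30073 were matched to a current symbol through the Entrez number. A model with 6 group means was fitted to 15489 features with limma's lmFit and eBayes, on 6 residual degrees of freedom and 4.3 from the prior, with p-values adjusted by Benjamini-Hochberg within each of 7 comparisons. The fit was checked on simulated data.

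Named members were, among called members whose arrays did not overlap the other group's, the 12 largest rises and 8 largest falls of each dust comparison and the 8 largest in each direction between controls. Beside these came the 5 largest called members in each direction of each difference between lines, and 32 followed transporters. Members, classes, followed genes and partner lists were chosen with earlier results of these data known. Alternatives were median scaling, leaving the background uncorrected, fitting each line on its own, the authors' values, 2 other filters, a variance trend, another probe or symbol choice, a replicate block and leaving out each array; counts over members above background on all 4 arrays and without symbols that code for no transporter were added after seeing the data.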

Additional observations from a re-analysis of the deposited data

Results flagged for a closer look

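The dust change at 3 h differed between the lines, BEAS-2B minus THP-1, by the interaction term of the fit for 77 of 209 members. This was 21.5% of members higher and 15.3% lower, against 14.9% and 11.7% of all features, and whether members differ from other features was not tested. The doses differed too, so line and dose cannot be told apart. Among amino acid carriers the difference was -6.35 for SLC16A10, -3.32 for SLC7A5, -3.20 for SLC7A11, -2.35 for SLC43A2, -1.50 for SLC3A2, -1.36 for SLC7A2 and -0.91 for SLC7A1, against 1.73 for SLC38A2 and 0.94 for SLC1A4. Among metal carriers it was -1.62 for SLC11A2, -1.02 for SLC41A2 and -0.85 for SLC39A8, against 2.00 for SLC40A1 and 1.08 for SLC11A1. Among sugar carriers it was -1.56 for SLC2A3 and -0.90 for SLC2A6. Vitamin, lysosomal and organic ion carriers gave 2.16 for SLC46A3, 1.86 for SLC19A1, 1.85 for SLC22A5, -0.88 for SLC19A2 and -1.03 for SLC15A3. SLC35G1 gave -2.35 and the antisense symbol SLC67A1-AS 2.81. For SLC7A11, SLC40A1, SLC11A1 and SLC67A1-AS no BEAS-2B group was above background on both arrays. The value of SLC16A10 also rests on groups below background, so these values are fitted sizes and no bounds. The calls of SLC1A4, SLC39A8, SLC7A1, SLC19A2 and SLC38A2 were lost without any of 4, 4, 2, 1 and 1 single arrays.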

How the results depend on the processing

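Of the results for named members under the alternatives, 5442 kept their direction and side of the threshold, 113 lost their call, 35 gained one and 0 reversed. In THP-1 at 1 h the 5 calls became 2 with each line on its own, 3 with probes above background on all 12 arrays, 3 among members above background on all 4 arrays, and 2 to 6 without single arrays (2 without either THP-1 control or the first THP-1 dust 1 h array, 3 without any BEAS-2B control or dust 1 h array). In THP-1 at 3 h, 119 became 71 with the filter on all 12 arrays, which leaves 130 members and 9408 features. With that filter BEAS-2B at 1 h had 1 in place of 2 (also 1 among members above background on all 4 arrays), the controls 88 in place of 143 and the line difference at 3 h 42 in place of 77. BEAS-2B at 3 h ranged from 8 to 19 without single arrays, around 15, with the lowest values without BEAS-2B control replicate 1 or 2 (8 each) and 9 without its first dust array. The line difference at 3 h ranged from 49 to 76 without single arrays, with 49 and 51 without BEAS-2B control replicate 1 and 2. The line difference at 1 h had 1 call, SLC2A6, in place of 0 without background correction, with the authors' value table and with a variance trend; the cause of these changes was not tested. Each line on its own gave 12 rises and 7 falls in BEAS-2B at 3 h, against 8 and 7, and in THP-1 at 1 h median scaling gave 3 and 1, against 3 and 2. A lone array of a group was taken to vary like the other groups. With a replicate block the counts were 5, 124, 2, 17, 145, 0 and 78 in the order of the 4 dust comparisons, the controls and the differences at 1 h and 3 h; among named members the block ended the call of SLC46A3 in THP-1 at 1 h (adjusted p = 0.0585) and added those of SLC11A2 in THP-1 at 1 h (0.0297), SLC31A2 in THP-1 at 3 h (0.0469) and SLC7A2 in BEAS-2B at 3 h (0.0481). Deviations of equal numbers correlated at -0.11 to 0.34 over 15 group pairs, 7 of them over 0.1 and 1 under -0.1. The labels do not say what a number stands for and not every pair was over 0.1, so the numbers were not taken to pair the samples, and a shared effect of the number was not settled. Members not well above background in a group have only a bound there.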

Other observations

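The 43 members with several kept probes had 50 probes beside the one used. In THP-1 at 3 h the used probe was called in 28 of these 50 pairs, both probes were called in 17, and 15 of the 17 had the same direction. The 2 of these 17 that went opposite ways were SLC25A24 (5.47 and -0.70) and SLC35H1 (0.44 and -0.59), named after their values were seen. Over all 28 pairs, the other probe, called or not, had the opposite sign in 5. The second probe of SLC25A24 was not above background in that dust group. Between the controls the used probe was called in 31 pairs, and all 23 pairs called on both probes had the same direction. In 1 of the 31 the other probe had the opposite sign. In BEAS-2B at 3 h, 2 of 4 pairs with the used probe called were called on both probes, and in 1 of the 4 the other probe had the opposite sign.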
